A study of Drosophila melanogaster with 23 samples.

Results

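Whole first-instar (L1) larvae of Drosophila melanogaster that carry arginine in place of lysine 36 on both forms of histone H3 were compared with larvae that carry this change on the variant H3.3 alone. The comparison rests on 8 of the 23 RNA-seq libraries of the series, 4 labelled H3.3K36RH3.2K36R (the combined genotype) and 4 labelled H3.3K36RH3.2HWT (H3.3K36R alone). Of the 17606 genes in the table of read counts, 14365 passed a filter on low counts and were tested. Both groups carry H3.3K36R, so the groups differ in H3.2, the replication-coupled form of H3, which is written K36R in one label and HWT in the other. HWT is not spelled out in the labels and is taken here as unmutated H3.2. The series asks how the H3K36 methyltransferase Set2 and H3K36 itself act on the male X chromosome, and this pair of genotypes shows what H3.2K36R adds when H3.3 is already mutated. Each library came from 25 to 30 larvae, males and females pooled, of crosses kept at 25 °C, and total RNA was sequenced. The histone control H3.3CtrlH3.2HWT, with 4 libraries, is given beside the results as a reference level. It lacks both K36R labels, and what Ctrl stands for is not spelled out either. The labels do not say that replicates came from separate crosses, so p-values measure the spread between these samples, part of which may be technical.

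Lysine 36 of histone H3 is methylated by several enzymes: Set2 adds the trimethyl mark over transcribed gene bodies, while NSD and Ash1 (gene ash1) add lower methylation states. In flies H3.2 is packaged behind the replication fork from a large array of histone genes, and H3.3 is placed outside replication and is made from His3.3A and His3.3B. Methylated H3K36 is known for its part in transcript fidelity, for keeping Polycomb silencing off active genes, and for helping the MSL dosage compensation complex to spread over genes of the male X.

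Library totals ran from 111138070 to 139066678 counts in H3.3K36R alone and from 120072828 to 143916882 in the combined genotype, and replicates of both differed by more than counting error. A principal component analysis of the 8 libraries put both genotypes on opposite sides of its first axis, which held 54.7% of the variance. Replicate 3 of the combined genotype lay nearest to the other genotype among its replicates, at 31.9 against 60.03 to 75.7. Replicate 1 of H3.3K36R alone lay nearest in the other direction, at -33.5 against -79.2 to -54.9. Reads on the 111 replication-dependent histone genes of the table summed to 854 in replicate 3 of the combined genotype, against 6 to 50 in its other replicates and 8 to 86 in H3.3K36R alone. Only 2 of those 111 genes passed the filter, so the messages of the histone repeats were not measured. Without replicate 3 of the combined genotype 6769 genes were called in place of the 6858 given below, 3021 higher and 3748 lower.

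The genes tied to the genotypes come first. Levels are in CPM, read counts relative to each library total after TMM (trimmed mean of M-values) scaling, and values given after rose or fell are log2 differences ± SE. Set2 was read at 79.0, 75.7, 73.7 and 77.7 CPM in the 4 combined libraries and at 74.2, 77.1, 76.7 and 75.2 in H3.3K36R alone, a log2 difference of 0.01 ± 0.09 (SE; adjusted p = 0.922). His3.3A was at 40.1 ± 4.58 and 42.1 ± 5.49 CPM (SD, n = 4 each), a difference of -0.07 ± 0.11 that did not pass (adjusted p = 0.631). His3.3B was at 794 ± 55.4 CPM in the combined genotype and at 660.0 ± 37.9 in H3.3K36R alone, and rose by 0.27 ± 0.06 (adjusted p = 0.00165). The genes mfr, a ferlin gene needed in sperm, and FucTC, a fucosyltransferase gene, were low in both genotypes. They were picked because earlier results of these data had shown them low in H3.3K36R: mfr was at 0.0887 to 0.238 CPM in the combined genotype, 0.103 to 0.194 in H3.3K36R alone and 11.9 to 18.8 in the histone control. FucTC was at 2.05 to 2.71, 1.88 to 2.38 and 24.7 to 27.7 CPM in the same order. Of the pigmentation genes, white (w) was at -0.02 (adjusted p = 0.929), and yellow (y) was at 18.4 ± 3.58 against 33.9 ± 3.51 CPM, a fall (-0.88 ± 0.16, adjusted p = 9.18e-05).

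The genotypes differed across much of the transcriptome. The edgeR quasi-likelihood test called 6858 genes (47.7% of those tested) at a Benjamini-Hochberg adjusted p below 0.05. Of these, 2835 were higher in the combined genotype (19.7% of genes tested) and 4023 were lower (28%). Falls of 2-fold or more outnumbered rises of that size: 1739 genes fell at least 2-fold (12.1%) and 795 rose at least 2-fold (5.53%), while 290 fell and 312 rose by at least 4-fold. With each library's trend on exon length removed, an alternative chosen after seeing the data, 1284 fell and 993 rose at least 2-fold. The median log2 difference over all genes was -0.03, against which the medians of gene groups below are set, and libraries of both genotypes did not overlap for 7138 genes (49.7%). H3.3K36R alone differed far less from the histone control, with 136 genes higher (0.947%) and 146 lower (1.02%), whereas the combined genotype had 2361 higher (16.4%) and 3277 lower (22.8%) against that control. Both of these share libraries with the main comparison. Where no gene of a group is said below to have risen or fallen, at most 1 of its genes had an unadjusted p below 0.05 in that direction and DESeq2, another count test, called at most 1. Counts were also taken under 16 alternative analyses, with other scalings, filters, sets of libraries or tools.

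**Figure D1:**
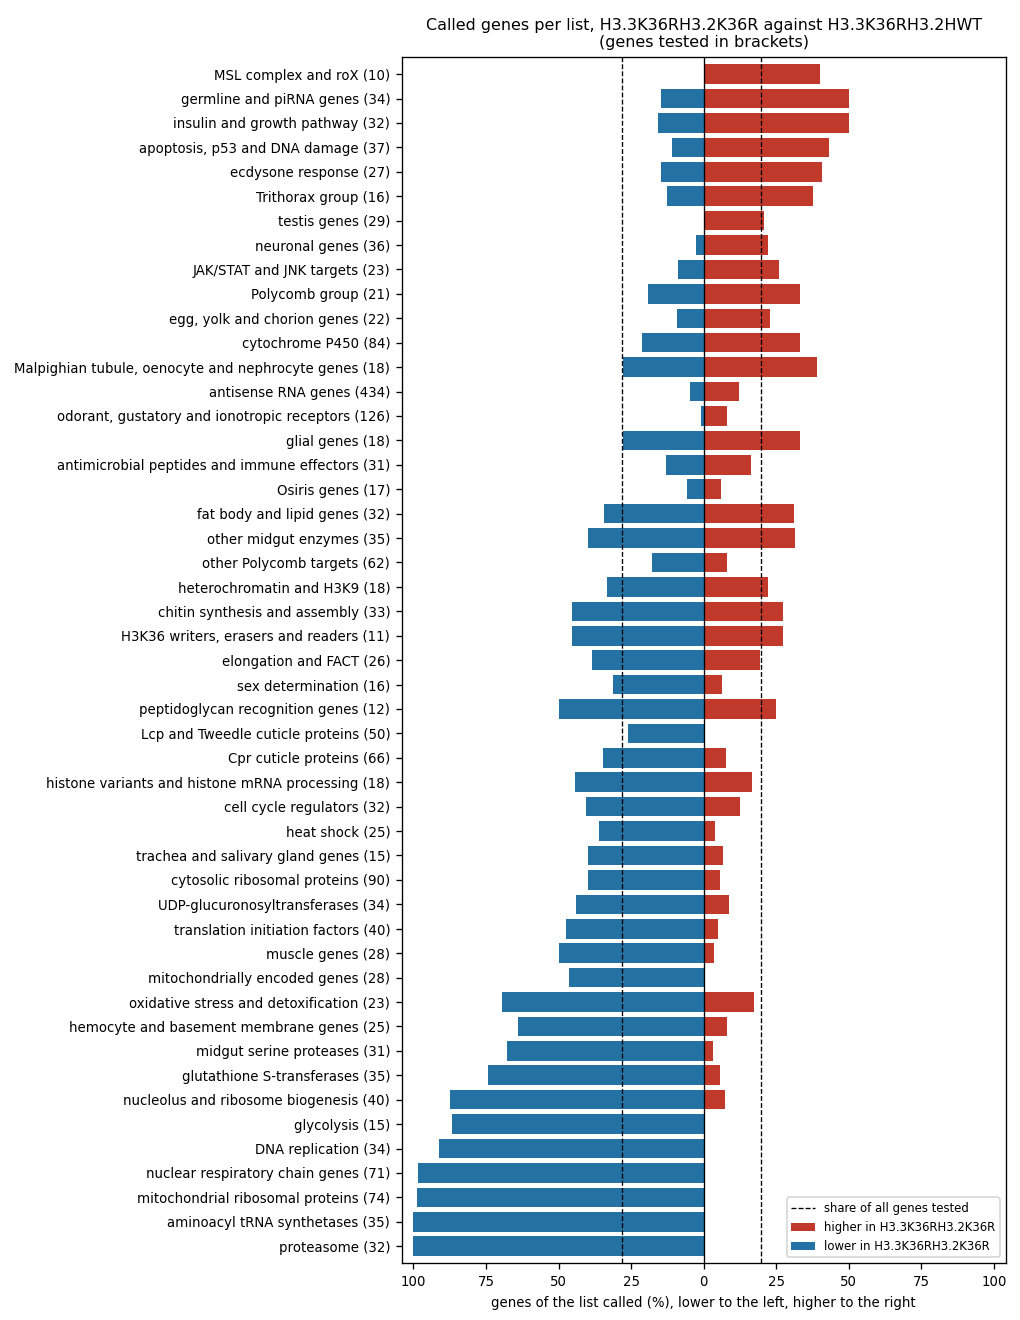
Share of each gene list called higher (right) or lower (left) in H3.3K36RH3.2K36R against H3.3K36RH3.2HWT, as a percentage of the list's tested genes, for lists with at least 10 of them (number in brackets). Dashed lines mark the shares over all genes tested, 19.7% higher and 28% lower; proteasome and aminoacyl tRNA synthetase genes reach 100% lower, and the nuclear respiratory chain and mitochondrial ribosome lists have 70 of 71 and 73 of 74 genes lower.

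Among called genes with a name of their own, at least 5 CPM in either genotype and no overlap, the largest rise was in Jig (FBgn0038239, chromosome 3R, 14560935 to 14561521 in the BDGP6.54 annotation), which was read at 66.5, 133, 52.8 and 112 CPM in the combined libraries and at 0.191, 0.837, 0.842 and 1.37 in H3.3K36R alone. The groups lay far apart, and the log2 difference was 6.80 ± 1.07 (adjusted p = 3.94e-05). Marf1, whose mouse counterpart controls oocyte meiosis, was at 60.3, 62.8, 57.8 and 60.8 CPM against 10.1, 10.1, 8.45 and 10.4, with the histone control lower still at 4.08 to 6.34 CPM. Its rise was 2.63 ± 0.28 (adjusted p = 2.47e-07). Myo81F, a myosin gene (FBgn0267431, chromosome 3R, 567076 to 2532932), was at 41.4, 34.0, 32.3 and 35.3 CPM against 5.52, 4.84, 3.36 and 4.96, and no library of one genotype came near the other (2.94 ± 0.16, adjusted p = 7.88e-11). The cytochrome P450 gene Cyp4ac3 was at 92.2, 91.8, 69.3 and 53.9 CPM against 12.7, 11.6, 6.43 and 6.28, a rise of 3.06 ± 0.27. Npc2c, of the sterol-binding Niemann-Pick C2 family, was at 37.0, 34.0, 35.2 and 37.2 CPM against 5.81, 2.65, 5.74 and 7.47 (2.73 ± 0.28).

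Of the other rises named by this rule, mamo encodes a zinc finger factor needed for the production of oocytes, and was at 9.99, 12.2, 10.6 and 9.89 CPM against 1.20, 0.864, 0.675 and 0.790, a rise of 3.596 ± 0.50 (adjusted p = 5.20e-06). The germline thioredoxin gene dhd was at 2.29, 1.08, 16.2 and 4.64 CPM against 0.599, 0.436, 0.373 and 0.149. Replicate 3 of the combined genotype was highest for it, and the rise of 3.96 ± 1.28 (adjusted p = 0.0162) was no longer called without that library (2.82, adjusted p = 0.0675). SteXh:CG42398, a Stellate gene on an unplaced scaffold, was at 11.7 to 15.6 CPM against 0.391 to 0.746 (4.63 ± 0.71); Stellate copies are nearly identical, so which copy gave the reads is uncertain. The mucin gene Muc14A was at 4.46 to 6.11 against 0.434 to 0.773 CPM and rose by 3.13 ± 0.50. Among noncoding genes, lncRNA:CR45585 was at 3.66 to 5.96 CPM against 0.0397 to 0.164 and lncRNA:Irar at 10.98 to 19.996 against 0.906 to 1.87, with rises of 5.85 ± 0.82 and 3.29 ± 0.29.

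The gene asRNA:CR45600 (FBgn0267160, chromosome 3R, 15136985 to 15140121) had the smallest adjusted p of all tested genes. It was read at 51.1, 48.2, 43.2 and 42.6 CPM in the combined libraries, 2.99, 3.15, 1.83 and 2.75 in H3.3K36R alone and 26.2, 23.8, 23.9 and 29.0 in the histone control. H3.3K36R alone was thus the low genotype, and the rise of 4.11 ± 0.15 (adjusted p = 8.71e-14) brought the combined genotype above the control. The sources used here do not give the strand setting of the counts, so reads of antisense genes cannot be told from those of their partners. The next smallest p among rises after Myo81F belonged to acs, at 17.3, 18.5, 15.5 and 14.98 against 4.39, 3.32, 3.34 and 4.17 CPM (2.12 ± 0.14, adjusted p = 5.50e-10), and to Lamp1, a lysosomal membrane protein gene, at 113, 108, 110.4 and 94.1 against 51.7, 46.5, 42.8 and 45.8 CPM (1.19 ± 0.08, adjusted p = 1.07e-09).

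Under the same limits the largest fall was in the alkaline phosphatase gene Alp7. It was at 0.408, 0.127, 3.73 and 1.18 CPM in the combined libraries and at 18.6, 28.7, 86.1 and 104.4 in H3.3K36R alone. Every combined library was below every other one, by a log2 difference of -5.44 ± 0.94 (adjusted p = 0.000105). Alp8, of the same family, was at 1.65, 1.67, 40.96 and 2.93 CPM against 53.9, 73.1, 217 and 189; here replicate 3 of the combined genotype stood far above its 3 companions, and the fall was -3.50 ± 0.88 (adjusted p = 0.00311, and 0.0702 when only the 8 libraries were fitted). The lysozyme gene LysB was at 16.8, 13.7, 28.9 and 18.1 CPM against 159.6, 256, 294 and 251 (-3.63 ± 0.42, adjusted p = 9.28e-07), and the trypsin gene thetaTry at 8.41, 5.63, 12.4 and 9.43 against 78.0, 76.7, 82.6 and 77.2 (-3.13 ± 0.23, adjusted p = 5.75e-09). For both, the genotypes lay far apart.

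Among immune and secreted products, PGRP-SC1a, a secreted peptidoglycan amidase gene, was at 0.530 to 1.46 against 4.81 to 16.8 CPM and fell by 3.56 ± 0.63. Drsl2, which encodes a drosomycin-like peptide, was at 0.843 to 4.20 against 13.1 to 25.05 CPM (-3.06 ± 0.44), and the C-type lectin gene lectin-24A at 0.0990 to 1.90 against 4.05 to 8.02 CPM (-3.07 ± 0.56). The cuticle genes Cpr65Ax1, Cpr65Ax2 and Lcp65Ag1 fell by log2 differences of -3.53 ± 0.64, -3.48 ± 0.64 and -3.49 ± 0.55. The former pair had nearly the same values in each library, and such close copies may share reads. PH4alphaMP, a prolyl 4-hydroxylase gene, was at 0.906, 1.004, 5.204 and 1.40 against 7.50, 14.6, 22.8 and 17.6 CPM (-2.87 ± 0.69), with replicate 3 highest in the combined genotype. hoip, which encodes a core protein of box C/D small nucleolar particles, was at 7.996, 9.34, 28.2 and 15.9 against 85.2, 94.4, 119 and 132 CPM (-2.81 ± 0.35, adjusted p = 2.18e-06).

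The falls with the smallest p were smaller in size and even between libraries. The glutathione S-transferase gene GstE13 was at 5.92, 5.68, 7.08 and 6.75 CPM against 18.3, 17.4, 20.2 and 18.1 (-1.54 ± 0.09, adjusted p = 3.37e-10). The mitochondrial enzyme genes ND-MLRQ, for a respiratory chain subunit, and kdn, for citrate synthase, fell by 1.65 ± 0.10 (adjusted p = 4.07e-10) and -0.98 ± 0.07 (adjusted p = 1.33e-09). wdp, for a leucine-rich repeat membrane protein, was at 139, 129, 156 and 153 against 325, 299.5, 300.1 and 331 CPM (-1.12 ± 0.08, adjusted p = 1.48e-09), with the histone control at 295 to 336.

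**Figure D2:**
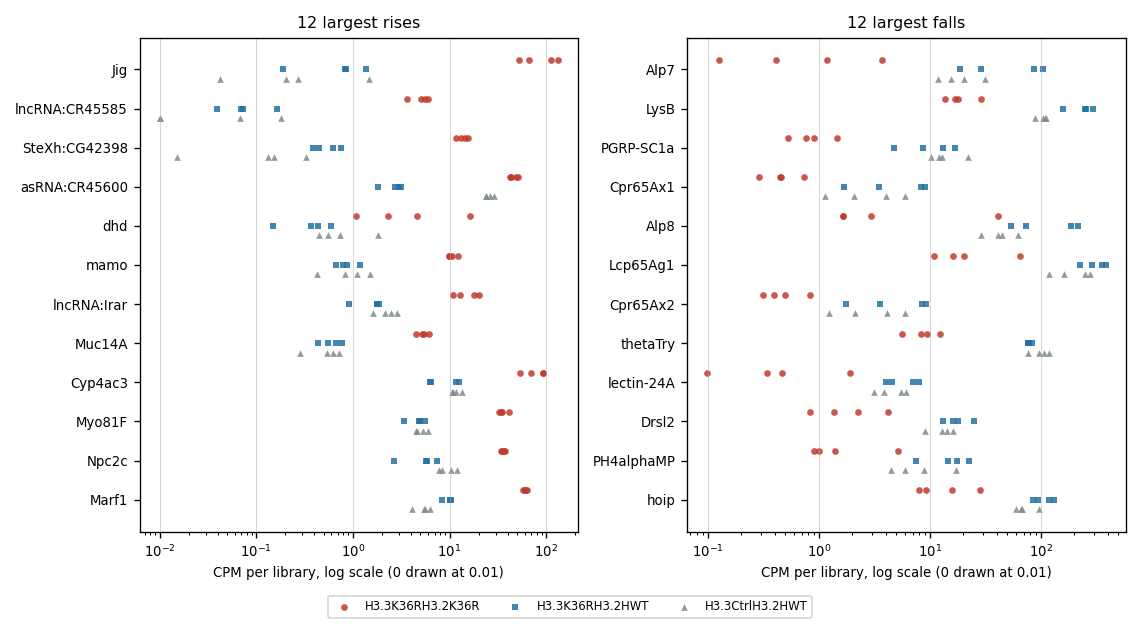
CPM of the 12 named genes with the largest rises (left) and falls (right) on a log axis, 1 point per library, for the combined genotype (circles), H3.3K36R alone (squares) and the histone control (triangles). Circles do not overlap squares for any of the 24 genes; for asRNA:CR45600 and Npc2c the squares all lie below the triangles and the circles all above them.

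Genes of mitochondrial respiration fell almost without exception. Of 71 tested nuclear genes for subunits of the respiratory chain, 70 fell and none rose, with a median log2 difference of -1.08 against -0.03 over all genes. COX4, a cytochrome c oxidase subunit gene, was at 164, 162, 190.3 and 187 CPM in the combined genotype and 357, 365, 361 and 360.2 in H3.3K36R alone, values that were tight within each group (-1.04 ± 0.08, adjusted p = 5.59e-09). ATPsynD, for an ATP synthase subunit, was at 167, 150.0, 207 and 173 against 396, 391, 416 and 429 CPM (-1.23 ± 0.09), and SdhD, of succinate dehydrogenase, at 50.2, 48.3, 62.0 and 57.1 against 129, 122, 129 and 125 CPM (-1.22 ± 0.09). Of the 74 proteins of the mitochondrial ribosome, 73 had lower messages and none rose (median -1.34): mRpS35 was at 6.07 to 8.46 against 20.5 to 25.7 CPM (-1.72 ± 0.13), mRpL45 at 18.3 to 23.9 against 46.0 to 52.0 (-1.20 ± 0.09), and mRpL14 and mRpL34 fell by log2 differences of -1.88 ± 0.15 and -1.56 ± 0.14. The counts of 70 and 73 held in each of the 16 alternatives.

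Genes encoded in the mitochondrion itself moved less evenly. Of 28 tested, 13 fell (46.4%, beside 28% of all genes) and none rose, with a median of -1.05. mt:CoI, a cytochrome c oxidase subunit gene, was at 2710 to 3150 CPM against 4798 to 5812 (-0.82 ± 0.09, adjusted p = 2.91e-07), and mt:CoII, mt:CoIII and mt:ND1 fell by log2 differences of -0.79 ± 0.14, -0.45 ± 0.08 and -0.72 ± 0.14. The share of all counts on mitochondrial genes was 1.24% ± 0.061 (SD, n = 4) in the combined genotype and 1.69% ± 0.148 in H3.3K36R alone. Whole larvae were sampled, so fewer cells of a type and less RNA per cell cannot be told apart here or in any group below.

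Ribosome biogenesis fell while the messages of ribosomal proteins had a median near 0. Of 40 nucleolar and ribosome assembly genes, 35 fell and 3 rose, with a median of -1.53. nop5, a core protein of box C/D particles, was at 33.6, 33.7, 66.5 and 51.5 CPM against 163, 204.5, 211 and 239 (-2.14 ± 0.21, adjusted p = 9.21e-08), with replicate 3 of the combined genotype highest and still below every H3.3K36R-alone library. NHP2 and Nop60B, of the box H/ACA particles that guide pseudouridylation, fell by log2 differences of -2.22 ± 0.23 and -1.99 ± 0.21, and nclb, a chromatin factor of the nucleolus, at -1.92 ± 0.20. Non1, a nucleolar GTPase gene, went the other way, at 2666, 2822, 2249 and 2098 CPM against 929, 991, 780.2 and 719.8 (1.52 ± 0.14, adjusted p = 2.47e-08).

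The small nucleolar RNAs that guide these particles were lower too. Of 236 tested snoRNA genes 95 fell (40.3%, beside 28% of all genes) and 2 rose, with a median of -1.01. Examples are snoRNA:Me28S-A1322, at 3.35, 2.82, 4.51 and 3.21 CPM against 7.71, 9.45, 11.2 and 11.5 (-1.52 ± 0.21), and snoRNA:Me28S-G2017, at 0.987, 0.573, 1.42 and 0.604 against 3.02, 3.66, 3.49 and 5.25 (-2.10 ± 0.29). They were chosen after their values were seen, and many snoRNAs lie inside introns of host genes, whose reads may be counted with them. Transfer RNA genes had 9 of 71 lower (12.7%), which is under the 28% of all genes, but their median was -0.98. Small nuclear RNA genes, 28 tested and 0 called, had a median of -0.70. Low medians were thus not particular to snoRNAs, and these classes were not counted again with the length trend removed.

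Cytosolic ribosomal proteins had 36 of 90 genes lower (40%, beside 28% of all genes) and 5 higher (5.56%, beside 19.7%). Their median was only -0.17. RpS2 was at 1152 to 1431 CPM against 1789 to 2162 (-0.66 ± 0.10), and RpL34a and RpS15Ab fell by log2 differences of -0.77 ± 0.12 and -0.98 ± 0.13; RpLP0-like, whose yeast counterpart works in ribosome assembly, fell by 1.73 ± 0.21. RpL24-like, also of assembly in yeast, rose by 0.58 ± 0.08. The count of lower ribosomal protein genes ran from 6 to 43 over the alternatives, and once each library's trend on exon length was removed 17 rose and 6 fell. It was 15 to 23 when any 1 of the 8 libraries was left out, 16 with DESeq2's size factors and 20 with no filter or a stricter one.

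All 35 aminoacyl tRNA synthetase genes, whose enzymes charge transfer RNAs, fell, with a median of -1.18. The mitochondrial synthetase gene ValRS-m was at 3.24, 3.91, 5.17 and 4.38 CPM against 11.6, 13.9, 15.9 and 15.4 (-1.77 ± 0.16, adjusted p = 2.26e-08). TrpRS-m and IleRS-m fell by log2 differences of -1.43 ± 0.15 and -1.61 ± 0.16, and PheRS-m at -0.67 ± 0.07. Translation initiation factors were mixed, with 19 of 40 lower (47.5%, beside 28% of all genes) and 2 higher (5%, beside 19.7%). eIF6, which keeps the large ribosomal subunit from joining too early, was at 19.4 to 29.8 against 60.2 to 85.2 CPM (-1.66 ± 0.21), and eIF2beta, eIF3j and eIF1 fell by log2 differences of -1.56 ± 0.19, -1.03 ± 0.14 and -0.86 ± 0.11, while the helicase gene eIF4A rose by 0.23 ± 0.07.

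DNA replication genes fell as a block, and cell cycle regulators less so. Of 34 replication genes, 31 fell and none rose, with a median of -1.60. Mcm2, a subunit of the replicative helicase, was at 6.90, 6.94, 14.74 and 9.54 CPM against 27.2, 29.5, 35.8 and 35.0 (-1.74 ± 0.22, adjusted p = 1.96e-06), and Mcm6 was at 12.7, 13.4, 18.2 and 15.3 against 39.8, 40.5, 47.7 and 50.9 (-1.59 ± 0.17). The origin recognition gene Orc2 fell by 2.48 ± 0.26 and Caf1-180, a chaperone that deposits replicated H3, at -1.62 ± 0.20. RnrL, for the ribonucleotide reductase large subunit, was at 6.76, 5.80, 19.1 and 6.80 against 37.9, 44.0, 64.9 and 60.1 CPM (-2.43 ± 0.37). For Mcm2, Mcm6 and RnrL, replicate 3 of the combined genotype was the highest of its group and replicates 3 and 4 of H3.3K36R alone were the highest of theirs, and the groups did not overlap. Among 32 cell cycle regulators 13 fell (40.6%, beside 28% of all genes) and 4 rose (12.5%, beside 19.7%). CycD, Cdk4, Rbf and stg, which drive or gate entry into S phase and mitosis, fell by log2 differences of -0.93 ± 0.17, -0.77 ± 0.12, -1.02 ± 0.15 and -0.66 ± 0.11. The Cdk inhibitor gene dap rose by 0.55 ± 0.08.

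Protein turnover and part of the folding machinery fell too. All 32 proteasome genes fell, with a median of -0.86: Prosbeta7, for a core subunit, was at 24.8, 24.6, 34.8 and 24.5 CPM against 61.7, 64.5, 76.7 and 79.8 (-1.38 ± 0.18, adjusted p = 2.94e-06), and Rpn3, Rpn9 and Rpn11, of the regulatory cap, fell by log2 differences of -0.99 ± 0.17, -0.93 ± 0.17 and -0.96 ± 0.17. Without any 1 library, and in the other alternatives, 30 to 32 of them fell. Of 25 heat shock and chaperone genes, 9 fell (36%, beside 28% of all genes) and 1 rose (4%, beside 19.7%). The fallen ones include the mitochondrial chaperone genes Hsp60A (91.0 to 207 against 435 to 698 CPM, -2.17 ± 0.27), Hsc70-5 (-1.74 ± 0.18) and CG11267 (-2.40 ± 0.27), and Hsc70-3, of the endoplasmic reticulum (-2.02 ± 0.31). Hsp70Aa, a stress-induced chaperone with near-identical copies, was low in both groups, at 0.775 to 1.65 and 0.358 to 0.625 CPM, and rose by 1.45 ± 0.48.

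Against the histone control, the following lists had medians on opposite sides in the 2 mutant genotypes. The median of the proteasome list was 0.49 in H3.3K36R alone and -0.37 in the combined genotype, and that of DNA replication was 0.46 and -1.11. Aminoacyl tRNA synthetases were at 0.39 and -0.73, mitochondrial ribosomal proteins at 0.33 and -0.99, and nucleolar genes at 0.29 and -1.20. In H3.3K36R alone at most 1 gene of any of these 5 lists was called against the control, while in the combined genotype 6, 30, 32, 73 and 35 were lower in that order. Library medians of H3.3K36R alone overlapped those of the control in all 5 lists. They were 0.26 to 0.66 against -0.39 to 0.45 for DNA replication, and 0.17 to 0.74 against -0.23 to 0.29 for the proteasome. Replicate 3 of the combined genotype (-0.08) also lay within the control's range for the proteasome. The main comparison shares its libraries with both, so these are the same values seen from another side.

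**Figure D3:**
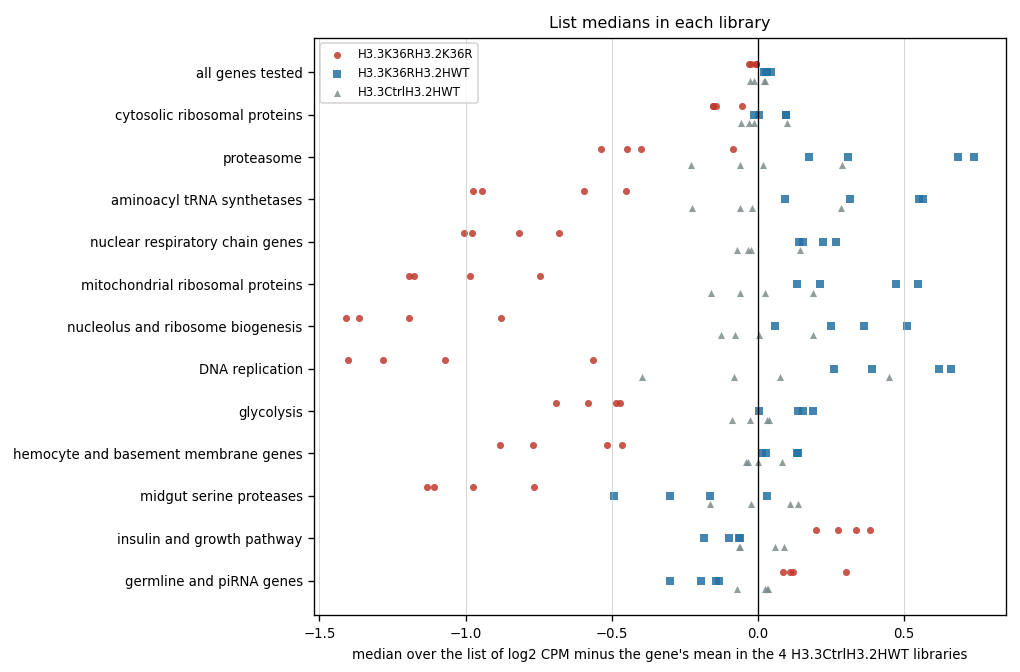
Median over each gene list of log2 CPM relative to the mean of the 4 histone control libraries, 1 point per library, for the combined genotype (circles), H3.3K36R alone (squares) and the control (triangles). For the proteasome, tRNA synthetase, respiratory chain, mitochondrial ribosome, nucleolus and DNA replication lists the squares lie to the right of 0 and the circles to the left, while all genes tested stay near 0 in each library.

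Glycolysis fell together with respiration. Of 15 glycolytic genes, 13 fell and none rose, with a median of -0.71. Gapdh2 was at 355, 324, 442 and 421 CPM against 873, 854, 986 and 840.2, with no overlap (-1.21 ± 0.12, adjusted p = 7.18e-08), and Ldh, for lactate dehydrogenase, at 239, 224, 260.1 and 263 against 429, 468, 606 and 546 (-1.06 ± 0.11). Gpo1, of the glycerophosphate shuttle, and Pglym78, a phosphoglycerate mutase gene, fell by log2 differences of -1.25 ± 0.13 and -0.89 ± 0.09. Antioxidant genes had 16 of 23 lower and 4 higher (median -0.91). Prx2 and Prx3, for peroxiredoxins, fell by log2 differences of -1.61 ± 0.15 and -1.58 ± 0.14, Trxr1, for thioredoxin reductase, at -1.24 ± 0.11, and Gclm, of glutathione synthesis, at -1.39 ± 0.14. cnc, the gene for the Nrf2-like regulator of such genes, was at 515 to 589 CPM against 421 to 451 and rose by 0.34 ± 0.08; with the length trend removed it was at 0.10 and was not called.

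Detoxification families split. Of 35 glutathione S-transferase genes 26 fell and 2 rose, with a median of -0.91; GstO2, GstO3 and GstE10 fell by log2 differences of -1.12 ± 0.13, -0.89 ± 0.13 and -0.87 ± 0.12. GstT4 rose, at 156, 134, 129 and 116 against 43.2, 30.5, 21.3 and 22.5 CPM (2.18 ± 0.27, adjusted p = 1.93e-06). UDP-glucuronosyltransferase genes had 15 of 34 lower (44.1%, beside 28% of all genes) and 3 higher (8.82%, beside 19.7%). Ugt37C1, Ugt37C2 and Ugt37D1 fell by log2 differences of -1.90 ± 0.23, -1.80 ± 0.17 and -1.56 ± 0.18, and Ugt303B3 rose by 1.09 ± 0.12. Ugt302K1 was at 0.293 to 0.638 CPM in the control, 2.75 to 3.27 in H3.3K36R alone and 0.661 to 1.10 in the combined genotype, so that after a fall (-1.88 ± 0.22) every combined library was still above every control library. Cytochrome P450 genes went the other way, with 28 of 84 higher (33.3%, beside 19.7% of all genes) and 18 lower (21.4%, beside 28%). Their median was 0.21. Besides Cyp4ac3, Cyp12c1 was at 54.6, 42.8, 50.6 and 60.1 against 18.99, 19.1, 22.4 and 22.5 CPM (1.33 ± 0.15), and Cyp6g1 and Cyp9b1 rose by 1.61 ± 0.24 and 0.96 ± 0.14. Cyp28d2 fell, at 14.1 to 23.6 against 83.2 to 107 CPM (-2.22 ± 0.16, adjusted p = 1.92e-09).

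Genes of the larval gut were lower in part. Of 31 trypsin-like and Jonah serine protease genes, 21 fell and 1 rose, with a median of -0.72. Jon99Fi was at 233, 203, 249.7 and 357 CPM against 1168, 1177, 1398 and 1308 (-2.28 ± 0.24, adjusted p = 2.17e-07), and epsilonTry and zetaTry fell by log2 differences of -1.75 ± 0.18 and -1.43 ± 0.15, whereas alphaTry was at 765, 864, 685 and 780.4 against 645, 526, 413 and 416 CPM and rose by 0.63 ± 0.19. Close Jonah copies may share reads. Other midgut enzyme genes had 14 of 35 lower (40%, beside 28% of all genes) and 11 higher (31.4%, beside 19.7%). Alp4 and LysC fell by log2 differences of -1.81 ± 0.19 and -2.33 ± 0.35, and the maltase genes diverged, since Mal-B1 fell by 1.29 ± 0.22 and Mal-B2, at 32.1 to 38.5 against 6.08 to 10.6 CPM, rose by 2.14 ± 0.21. Peptidoglycan recognition genes had 6 of 12 lower (50%, beside 28% of all genes) and 3 higher (25%, beside 19.7%). The amidase genes PGRP-SC1b, PGRP-SC2 and PGRP-LB, which break down bacterial wall fragments, fell by log2 differences of -2.40 ± 0.73, -0.68 ± 0.20 and -0.58 ± 0.14. The receptor gene PGRP-LC rose by 0.68 ± 0.08. PGRP-SC2 was not called with the length trend removed (adjusted p = 0.0526). Of 31 antimicrobial and immune effector genes 5 rose and 4 fell, both under the shares of all genes. BomS3, a Toll pathway peptide gene, was at 42.2, 93.1, 62.7 and 67.7 CPM against 21.9, 34.2, 14.9 and 6.27, with groups that came close to overlapping and a control at 28.1 to 90.6 (1.78 ± 0.56, adjusted p = 0.0143). BomS1, BomBc2 and edin rose by 1.87 ± 0.58, 2.56 ± 0.77 and 1.31 ± 0.20; BomBc2 was not called when only the 8 libraries were fitted (adjusted p = 0.0606).

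Fat body and lipid genes were divided, with 10 of 32 higher (31.2%, beside 19.7% of all genes) and 11 lower (34.4%, beside 28%). The lipoprotein gene apolpp, on chromosome 4, was at 885, 709, 1593 and 1286 CPM against 4532, 4617, 4877 and 4676, and the control was at 3481 to 4514 (-2.06 ± 0.19, adjusted p = 3.14e-08). Apoltp, of the same lipid transport system, fell by 0.49 ± 0.08, the fatty acid synthase gene FASN3 at -1.78 ± 0.29 and the lipid droplet gene Lsd-1 at -1.50 ± 0.18. SREBP, for the regulator of lipid synthesis, was at 436, 436, 399 and 403 against 263, 287, 272 and 272 CPM and rose by 0.61 ± 0.07.

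Of 66 Cpr cuticle genes 23 fell (34.8%, beside 28% of all genes) and 5 rose (7.58%, beside 19.7%), with a median of -0.89. Of 50 Lcp and Tweedle cuticle genes 13 fell, a share of 26.0% that is near that of all genes, and none rose. Cpr49Ad was at 10.2, 9.59, 19.5 and 14.66 CPM against 59.2, 82.2, 99.8 and 92.1 (-2.63 ± 0.25), and Cpr67Fa1, Cpr67Fa2 and Cpr31A fell by log2 differences of -2.51 ± 0.22, -2.35 ± 0.23 and -1.13 ± 0.11. Lcp65Aa, Lcp65Af, Lcp65Ag2 and Lcp65Ag3 fell by log2 differences of -2.11 ± 0.21, -2.51 ± 0.34, -1.89 ± 0.24 and -1.88 ± 0.21. Cpr65Ay was at 51.7, 50.1, 50.8 and 50.4 CPM against 23.6, 24.2, 23.3 and 21.4, the 8 values falling into tight groups, and rose by 1.14 ± 0.16 (adjusted p = 5.51e-06). Of 33 genes of chitin synthesis and assembly, 15 fell (45.5%, beside 28% of all genes) and 9 rose (27.3%, beside 19.7%). The chitin-binding genes obst-A and obst-E fell by log2 differences of -1.95 ± 0.31 and -1.58 ± 0.25. The chitin deacetylase genes Cda4 and Cda9 fell by log2 differences of -1.45 ± 0.22 and -0.82 ± 0.12. Idgf3, for a chitinase-like growth factor, rose by 0.80 ± 0.10. Osiris genes, a clustered insect family, had 1 of 17 higher and 1 lower (5.88% each), both under the shares of all genes. Osi3 was at 3.01, 3.65, 2.14 and 1.40 CPM against 0.130, 0.182, 0.0318 and 0.179 and rose by 4.28 ± 0.77, and Osi23 was listed at 0 in all combined libraries and at no more than 0.0894 CPM in H3.3K36R alone.

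Markers of tissues did not move as 1 block. Defining markers of muscle (Act57B), fat body (apolpp) and neurons (nSyb) were read in every library, as was the collagen IV gene Col4a1. Whole larvae were sampled, so the cells that gave the collagen reads are not known. Muscle genes had 14 of 28 lower (50%, beside 28% of all genes) and 1 higher (3.57%, beside 19.7%), with a median of -0.39. The actin gene Act57B was at 5330, 4757, 6442 and 5584 CPM against 8556, 10064, 11081 and 10223 (-0.85 ± 0.15), and TpnC47D, Mp20 and Tm1, for contractile proteins, fell by log2 differences of -1.02 ± 0.16, -0.73 ± 0.12 and -0.50 ± 0.09; tn, a tripartite-motif gene of muscle, rose by 0.75 ± 0.15. Hemocyte and basement membrane genes had 16 of 25 lower (64%, beside 28% of all genes) and 2 higher (8%, beside 19.7%). Their median was -0.76. The collagen IV genes Col4a1 and vkg were at 1115, 1014, 1634 and 1475 against 2924, 2937, 3194 and 3309 CPM and at 730.4, 678, 1073 and 994 against 1830, 1866, 2029 and 2075 CPM, log2 differences of -1.24 ± 0.11 and -1.17 ± 0.11. The laminin gene LanB1 fell by 0.85 ± 0.09 and Tig, for an integrin ligand, at -1.12 ± 0.11, while the hemocyte scavenger receptor gene Sr-CI rose by 0.45 ± 0.08. Trachea and salivary gland genes had 6 of 15 lower (40%, beside 28% of all genes) and 1 higher (6.67%, beside 19.7%). The tracheal FGF receptor gene btl, CrebA and PH4alphaSG1 fell by log2 differences of -0.77 ± 0.14, -0.87 ± 0.19 and -0.69 ± 0.15. The gene fkh rose by 0.23 ± 0.10 (adjusted p = 0.0489), a call lost in 7 alternatives. Sgs5, a salivary glue gene, was at 1.05, 1.47, 3.06 and 3.10 CPM in H3.3K36R alone and at no more than 0.0297 in the combined genotype and 0.0531 in the control.

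Neuronal genes had 8 of 36 higher (22.2%, near the 19.7% of all genes) and 1 lower (median 0.23). unc-13, for a synaptic vesicle priming protein on chromosome 4, was at 1049, 1022, 874 and 861 CPM against 582, 565, 469 and 466 (0.87 ± 0.16, adjusted p = 0.000112), and nSyb, Snap25 and Syn, of vesicle release, rose by 0.56 ± 0.13, 0.57 ± 0.11 and 0.32 ± 0.12. Syn was not called without replicate 1 or 2 of the combined genotype, without replicate 4 of H3.3K36R alone or with the length trend removed (adjusted p = 0.0534 to 0.0844). ple, for tyrosine hydroxylase, which also serves cuticle darkening, fell by 0.61 ± 0.12. The count of higher neuronal genes depended on the analysis: it was 24 when only the 8 libraries were fitted and 3 with the length trend removed. It was also 3 without replicate 1 or replicate 2 of the combined genotype or replicate 4 of H3.3K36R alone, and 4 or 5 without replicate 3 of H3.3K36R alone or replicate 4 of the combined genotype. Neuronal genes are long, with a median exon length of 7662 bases. Glial genes had 6 of 18 higher (33.3%) and 5 lower (27.8%, near the 28% of all genes). The glutamate transporter gene Eaat2 and the barrier gene moody rose by 0.58 ± 0.10 and 0.49 ± 0.08, and loco and zyd by 0.66 ± 0.08 and 0.39 ± 0.09. wrapper, of midline and wrapping glia, fell by 1.52 ± 0.21. Malpighian tubule, oenocyte and nephrocyte genes had 7 of 18 higher (38.9%) and 5 lower (27.8%, near the 28% of all genes). Capa and its receptor gene CapaR, of diuretic control, rose by 0.81 ± 0.16 and 0.59 ± 0.13, the nephrocyte genes kirre and Cubn by 0.71 ± 0.14 and 0.29 ± 0.09 (Cubn 0.02 and not called with the length trend removed), and Picot fell by 1.16 ± 0.15. Odorant, gustatory and ionotropic receptor genes, most of them hardly expressed, had 10 of 126 higher (7.94%, below the 19.7% of all genes) and 1 lower; Ir62a, Ir21a, Ir76a and Ir25a rose by 1.15 ± 0.13, 1.29 ± 0.16, 1.68 ± 0.26 and 0.72 ± 0.14, all from levels under 6 CPM.

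Genes of insulin signalling, the ecdysone response and DNA damage included more rises than falls. Of 32 insulin and growth pathway genes, 16 rose (50%, beside 19.7% of all genes) and 5 fell (15.6%, beside 28%), with a median of 0.39. chico, for the insulin receptor substrate, was at 167, 162, 139 and 123 CPM against 74.9, 76.0, 68.4 and 65.9, and mio, of the amino acid sensing arm, at 78.5, 77.9, 70.01 and 64.7 against 35.4, 36.8, 34.9 and 34.5. They rose by 1.05 ± 0.10 (adjusted p = 5.83e-08) and 1.04 ± 0.09 (adjusted p = 2.18e-08). Lnk, an adaptor of the receptor, and Pi3K92E, for the catalytic PI3-kinase, rose by 0.99 ± 0.12 and 0.64 ± 0.09, and Ilp2, for an insulin-like peptide, fell by 0.69 ± 0.17. Of 27 ecdysone and juvenile hormone response genes 11 rose (40.7%, beside 19.7% of all genes) and 4 fell (14.8%, beside 28%). Eip74EF was at 38.2, 36.7, 25.5 and 23.9 CPM against 10.5, 11.99, 7.14 and 6.74 (1.77 ± 0.19), EcR, for the receptor itself, at 204.6, 203, 178 and 169 against 113, 119, 105 and 95.4 (0.81 ± 0.11), and the juvenile hormone receptor genes Met and gce rose by 0.66 ± 0.10 and 0.58 ± 0.10. The 11 rises were 7 without replicate 1 or replicate 2 of the combined genotype.

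Of 37 genes of apoptosis, p53 and DNA damage, 16 rose (43.2%, beside 19.7% of all genes) and 4 fell (10.8%, beside 28%). Their median was 0.27. The DNA break repair genes rad50 and mre11 were at 78.7, 79.6, 61.9 and 62.7 against 30.7, 24.5, 22.7 and 19.6 CPM and at 33.4, 37.8, 32.7 and 31.0 against 22.5, 21.9, 18.5 and 18.2 CPM, rises of 1.54 ± 0.13 (adjusted p = 1.92e-08) and 0.73 ± 0.10. The death gene hid was at 10.3 to 12.6 against 4.43 to 5.44 CPM and rose by 1.27 ± 0.19, and the stress factor gene Xrp1 rose by 0.55 ± 0.09. Of 23 targets of JAK/STAT and JNK signalling, 6 rose (26.1%, beside 19.7% of all genes) and 2 fell (8.70%, beside 28%). puc, a JNK target and phosphatase, Jra, Socs16D and hep rose by 0.67 ± 0.11, 0.41 ± 0.09, 0.56 ± 0.11 and 0.33 ± 0.08. Ilp8, a signal of growth disturbance, was under 1 CPM in both groups and fell by 1.53 ± 0.55. It was not called without replicate 2 or 3 of the combined genotype, without replicate 3 or 4 of H3.3K36R alone (adjusted p = 0.0563 to 0.0764) or with the length trend removed (adjusted p = 0.0522).

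Germline genes also had more rises than falls. Of 34 germline and piRNA pathway genes 17 rose and 5 fell, with a median of 0.45. krimp, a Tudor protein gene of the nuage where piRNAs are made, was at 8.81, 12.5, 9.34 and 9.03 CPM against 1.30, 1.86, 1.72 and 1.66 (2.599 ± 0.19, adjusted p = 4.31e-09). del and rhi, partners in piRNA cluster transcription, were at 7.30, 7.70, 8.03 and 6.398 against 4.08, 2.99, 2.95 and 3.22 and 10.6, 10.4, 10.3 and 8.70 against 4.39, 5.12, 5.34 and 4.14 CPM (1.15 ± 0.16 and 1.07 ± 0.20). qin and stwl rose by 1.08 ± 0.15 and 0.98 ± 0.10, and papi, for a Tudor protein of piRNA maturation at mitochondria, fell by 0.41 ± 0.07. Genes of testis expression had 6 of 29 higher (20.7%, near the 19.7% of all genes) and none lower. blanks, for an RNA-binding protein of the testis, was at 26.9, 28.4, 24.1 and 29.6 CPM against 6.11, 7.28, 7.39 and 8.82 and 1.80, 1.51, 1.09 and 1.59 in the control, so that H3.3K36R alone already lay above the control (1.88 ± 0.22, adjusted p = 5.81e-07). topi, achi and orb2 rose by 0.99 ± 0.29, 0.34 ± 0.11 and 0.51 ± 0.12.

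Maternal and egg genes had 5 of 22 higher (22.7%, near the 19.7% of all genes) and 2 lower, and most of their rises rested on few reads. nanos, for a translational repressor of the germ line and posterior embryo, was at 6.07, 6.28, 8.77 and 7.15 CPM against 1.68, 1.41, 1.71 and 1.95, which did not overlap (2.07 ± 0.36, adjusted p = 6.68e-05), and it was called in every alternative run. osk, for the germ plasm organiser, was at 0.312, 0.0495, 2.07 and 0.409 CPM against 0.0521, 0.00909, 0 and 0.0894, highest in replicate 3 of the combined genotype. gnu and gd were at 0.193 to 1.33 and 1.21 to 1.55 CPM against 0.0347 to 0.253 and 0.391 to 0.890, and tsl fell by 0.61 ± 0.12. gnu and gd each lost their call in 4 of the 8 analyses that left out 1 library. Without replicate 3 of the combined genotype 2 genes of the list rose, and osk (2.77, adjusted p = 0.0873) and gnu (1.499, adjusted p = 0.145) were not called; 2 rose without replicate 2 of H3.3K36R alone, 3 without any other of its replicates, and 8 with the replicate block.

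Genes of the Y chromosome, read at low levels in every genotype, were higher in sum in the combined genotype. Reads on all 113 Y genes of the table, with no filter, summed to 25.6, 34.3, 25.6 and 28.9 CPM in the combined libraries and to 12.4, 15.4, 22.5 and 25.5 in H3.3K36R alone, where the gene FDY made up most of the sum. Without FDY, a sum taken after seeing the data, the values were 3039, 4335, 3405 and 4144 reads against 660, 650, 705 and 834, which is 25.01 ± 4.06 CPM (SD, n = 4) against 5.86 ± 0.266, with the control at 5.19 ± 0.773. With FDY the groups nearly touched and without it they lay far apart, and neither sum overlapped (exact two-sided permutation p = 0.0286, the smallest that 4 libraries against 4 allow). Of the 113 genes 43 passed the filter on low counts, 15 of them through the combined libraries alone, so a count over the 43 is set in part by the filter. Of the 28 that passed when the combined libraries had no part in the filter, 8 rose (28.6%, against 19.7% of all genes) and 1 fell. The fertility factor kl-3, for a dynein heavy chain of sperm, was at 2.46, 3.85, 2.30 and 2.58 CPM against 0.0782, 0.0182, 0.0397 and 0.0373 (5.98 ± 0.86, adjusted p = 6.82e-06), and kl-2, for another, at 2.43, 3.15, 2.14 and 3.15 against 0.252, 0.346, 0.214 and 0.179 (3.45 ± 0.55, adjusted p = 2.10e-05). PRY was at 0.468 to 0.561 against 0 to 0.0347 CPM and ORY at 0.171 to 0.325 against 0 to 0.0159. The control was low too, with kl-3 at 0.0553 to 0.250 CPM. FDY, a Y gene of autosomal origin, fell, at 3.06, 3.63, 3.999 and 3.63 against 6.66, 9.502, 16.9 and 19.3 CPM (-1.87 ± 0.36, adjusted p = 0.000179). Among protein-coding genes of the Y, 4 of 7 rose and 1 fell, and among Stellate and Su(Ste) genes 2 of 8 rose, again counts that the filter can set. The repeat RNA gene Su(Ste):CR45796 was at 0.141 to 0.354 CPM and was listed at 0 in each library of H3.3K36R alone.

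A Y minus autosome index is the mean log2 CPM of Y genes minus that of autosomal genes (2L, 2R, 3L, 3R). Over the 43 Y genes tested it was -4.10 ± 0.189 (SD, n = 4) in the combined genotype, -6.11 ± 0.0755 in H3.3K36R alone and -6.25 ± 0.261 in the control, a difference of 2.01 between the former pair. Because of the filter that size is given as a description. In 2 alternatives added after seeing the data the difference was 1.27 over every gene with a read and 1.47 over genes that passed the filter without the combined libraries (adjusted p = 0.0286 for each). The same index of chromosome 4 was 1.90, 1.86, 1.73 and 1.78 in the combined libraries and 1.69, 1.66, 1.58 and 1.45 in H3.3K36R alone, a difference of 0.224 ± 0.0650 (SE), with the control at 1.74 ± 0.0733. The chromosome 4 difference had an exact two-sided permutation p of 0.0286, the smallest possible, and 0.0286 after Benjamini-Hochberg adjustment over the 3 indices. It moved to 0.115 (adjusted p = 0.0571) with the length trend removed and kept 0.280 as a difference of medians (adjusted p = 0.0857). Of 111 tested genes of chromosome 4 27 rose (24.3%, beside 19.7% of all genes) and 20 fell (18.02%, beside 28%).

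The X index was 0.472 ± 0.0218 in the combined genotype, 0.384 ± 0.0205 in H3.3K36R alone and 0.356 ± 0.0114 in the control. Its difference of 0.0883 ± 0.0150 had the same smallest exact permutation p of 0.0286. The sign depended on how genes were averaged: with medians in place of means the difference was -0.0554 (adjusted p = 0.0857), and the median log2 difference of X genes was 0.02 against -0.03 over all genes. Of 2249 X genes 480 rose (21.3%, beside 19.7% of all genes) and 602 fell (26.8%, beside 28%).

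**Figure D4:**
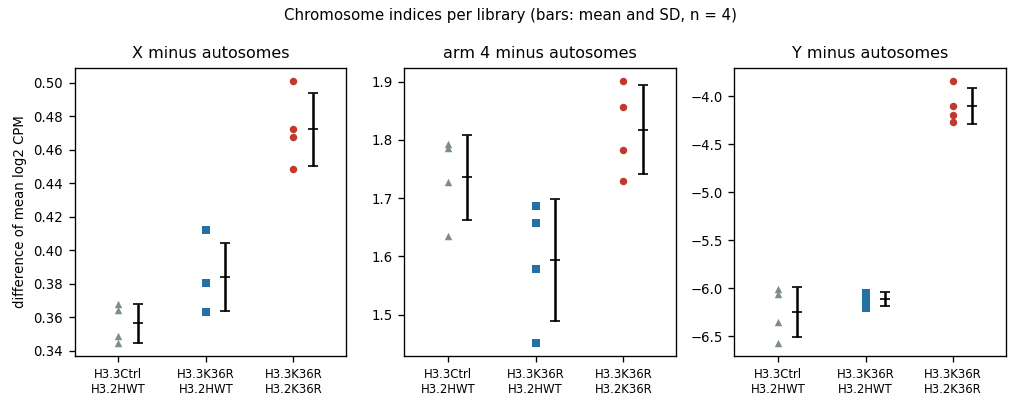
Mean log2 CPM of genes on the X, chromosome 4 and the Y minus that of the large autosomal arms, 1 point per library, with the mean and SD of each group of 4 beside it. The combined libraries lie above both other genotypes for the Y (-4.27 to -3.84, with both other genotypes between -6.57 and -6.01, over 43 genes of which 15 passed the filter through the combined libraries alone) and the X, and above those of H3.3K36R alone for chromosome 4; each panel has its own axis.

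Of the roX RNAs, which guide dosage compensation and are made in males, roX1 rose and roX2 missed the threshold. lncRNA:roX1 (FBgn0019661, chromosome X, 3857230 to 3862697) was at 1497, 1992, 1625 and 1597 CPM in the combined libraries, 657, 826, 863 and 745 in H3.3K36R alone and 1309, 1304, 1099 and 1556 in the control. H3.3K36R alone was lowest throughout, and the rise over it was 1.12 ± 0.15 (adjusted p = 2.78e-06). lncRNA:roX2 was at 67.3, 95.4, 79.7 and 89.5 CPM against 53.5, 64.2, 70.01 and 59.1 and just missed the threshold (0.43 ± 0.18, adjusted p = 0.0504), which it passed in 12 of 16 alternatives; the control was at 90.8 to 127 CPM. Of the 10 genes for the MSL complex, its partners and roX, 4 rose (40%, beside 19.7% of all genes) and none fell. The others were msl-2, the male-limiting subunit (35.8, 44.6, 39.5 and 36.8 against 28.4, 29.1, 30.3 and 31.3 CPM, 0.39 ± 0.10), msl-3 (0.46 ± 0.09) and the DNA-binding partner gene Clamp (0.36 ± 0.06). The acetyltransferase gene mof was at 0.04 (adjusted p = 0.751). The labels do not give the sex ratio of the pools, so a larger share of males and more roX or Y-linked RNA per male cannot be told apart. Of 16 sex determination genes, 5 fell (31.25%, near the 28% of all genes) and 1 rose, the rise being msl-2. dsx, snf, nito and dpn fell by log2 differences of -0.74 ± 0.21, -0.66 ± 0.14, -0.35 ± 0.12 and -0.91 ± 0.20, while Sxl, the female switch gene, was at 315 to 430.5 CPM against 250.4 to 326 and did not pass (0.34 ± 0.17, adjusted p = 0.111). Without replicate 4 of H3.3K36R alone 2 of these 5 falls were called, and without its replicate 3, 3. nito was also not called without replicate 2 or 4 of the combined genotype, and dsx with the replicate block (adjusted p = 0.0663). Sxl was called as higher when only the 8 libraries were fitted (adjusted p = 0.0256) and with the replicate block (adjusted p = 0.000484). It was also called without replicate 1 of H3.3K36R alone (adjusted p = 0.0434) and with DESeq2 (adjusted p = 0.0487).

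Writers and readers of H3K36 methylation moved in both directions. Of 11 writers, erasers and readers 3 rose (27.3%, beside 19.7% of all genes) and 5 fell (45.5%, beside 28%). Without replicate 3 of H3.3K36R alone 3 of them fell. The methyltransferase gene ash1 was at 103.5, 100.5, 90.3 and 89.1 CPM against 65.0, 68.1, 63.8 and 60.4, with groups well apart (0.58 ± 0.08, adjusted p = 2.22e-06), and NSD was at 43.7, 45.1, 45.4 and 43.0 against 51.0, 49.9, 57.7 and 55.6 (-0.27 ± 0.08, adjusted p = 0.00462; adjusted p = 0.0535 without replicate 3 of H3.3K36R alone). Spt6, for the elongation factor that Set2 works with, fell by 0.31 ± 0.08, Jasper, for a reader of methylated H3K36, at -0.51 ± 0.10, and the histone chaperone gene Caf1-55 at -0.99 ± 0.20. In 26 elongation and FACT genes 10 fell (38.5%, beside 28% of all genes) and 5 rose (19.2%, beside 19.7%). Ssrp, of FACT, was at 26.1, 27.8, 36.1 and 26.9 against 54.3, 60.5, 77.3 and 79.9 CPM (-1.22 ± 0.20). asf1, spt4 and Mi-2 fell by log2 differences of -1.18 ± 0.18, -1.08 ± 0.19 and -0.56 ± 0.09. The remodeller gene Chd1 rose by 0.28 ± 0.06 (0.10 and not called with the length trend removed). Histone variants and histone message factors had 8 of 18 lower (44.4%, beside 28% of all genes) and 3 higher (16.7%, beside 19.7%). His2Av, for the variant H2Av, was at 50.8, 47.8, 82.2 and 52.6 against 118, 131, 184 and 188 CPM (-1.41 ± 0.26). Nlp and Lsm11 fell by log2 differences of -1.68 ± 0.30 and -1.11 ± 0.26, and wge rose by 0.42 ± 0.09.

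Polycomb and Trithorax group genes had more rises than falls, and 2 of the 8 Hox genes were called. Of 21 Polycomb group genes 7 rose and 4 fell: Su(z)2 was at 227, 219.6, 177 and 172 CPM against 94.1, 101, 85.1 and 87.3 (1.11 ± 0.12, adjusted p = 1.52e-07), and Asx, Psc and ph-d rose by 0.49 ± 0.08, 0.39 ± 0.10 and 0.45 ± 0.09. Of 16 Trithorax group genes 6 rose (37.5%, beside 19.7% of all genes) and 2 fell (12.5%, beside 28%). trx, for an H3K4 methyltransferase, was at 685, 688, 611 and 594 CPM against 402, 395, 343 and 349 (0.79 ± 0.13), Utx, for an H3K27 demethylase, and Mnn1 rose by 0.81 ± 0.09 and 1.09 ± 0.12, and the remodeller gene brm fell by 0.67 ± 0.13. With the length trend removed 5 Trithorax genes rose and 6 fell. Of the 8 Hox genes, Abd-B rose, at 119, 116, 99.5 and 106 CPM against 70.9, 69.9, 69.1 and 73.3, which did not overlap (0.63 ± 0.11, adjusted p = 3.80e-05). pb was called as higher (0.30 ± 0.12, adjusted p = 0.0388) although the groups overlapped, and it lost the call in 8 alternatives. The other 6 were not called, with log2 differences of -0.05 for lab, 0.21 for Dfd, -0.16 for Scr, -0.04 for Antp, -0.29 for Ubx and 0.04 for abd-A. With the length trend removed Scr, Antp and Ubx were lower and called. Ubx was also called as lower with only the 8 libraries fitted (-0.257, adjusted p = 0.0146) and with the replicate block (-0.254, adjusted p = 0.00675). Dfd was called as higher without replicate 2 of H3.3K36R alone (0.354, adjusted p = 0.0250). Among 62 other Polycomb targets 11 fell and 5 rose, which is below the shares of all genes; the 11 were 7 without replicate 3 of the combined genotype, without replicate 2 of H3.3K36R alone and with DESeq2's size factors. bab1 was at 15.3, 16.8, 14.4 and 14.503 CPM against 5.05, 5.16, 4.25 and 4.64 (1.68 ± 0.13, adjusted p = 5.75e-09), while drm, ems, hh and Poxn fell by log2 differences of -0.59 ± 0.09, -0.50 ± 0.11, -0.75 ± 0.18 and -1.01 ± 0.25. Heterochromatin genes had 6 of 18 lower (33.3%) and 4 higher (22.2%), near the 28% and 19.7% of all genes. Su(var)3-9 and egg, for H3K9 methyltransferases, fell by log2 differences of -1.20 ± 0.14 and -0.32 ± 0.08, and the HP1 genes HP1b and HP1c at -0.67 ± 0.13 and -0.55 ± 0.15; of these lower genes 3 were left with the length trend removed, HP1c among those lost.

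Short and long genes differed in direction. Of protein-coding genes that span under 2 kb, 11.5% rose and 36.6% fell, and of those of 50 kb or more 39.2% rose and 6.5% fell. Within the highest tercile of expression levels, above 26.9 CPM, the same shares were 11.4% and 66.3% for the short genes and 37.9% and 5.24% for the long ones. Levels relative to the mean of the histone control libraries rose by 0.0337 to 0.0629 (log2) per doubling of exon length in the combined libraries. The slope was -0.0323 to 0.00882 in H3.3K36R alone. In the control it was -0.0316 to 0.0219, and its slopes cancel out because its own mean is the reference. The part of gene length in these results was not tested, but the gene groups were counted again with each library's trend on exon length removed. Genomic span, used for the shares above, is another measure and was not corrected for. Respiratory chain genes, with a median exon length of 844 bases, then had 70 lower (median -0.85), mitochondrial ribosomal proteins 73, proteasome genes 30, DNA replication genes 31 and glycolytic genes 13.

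**Figure D5:**
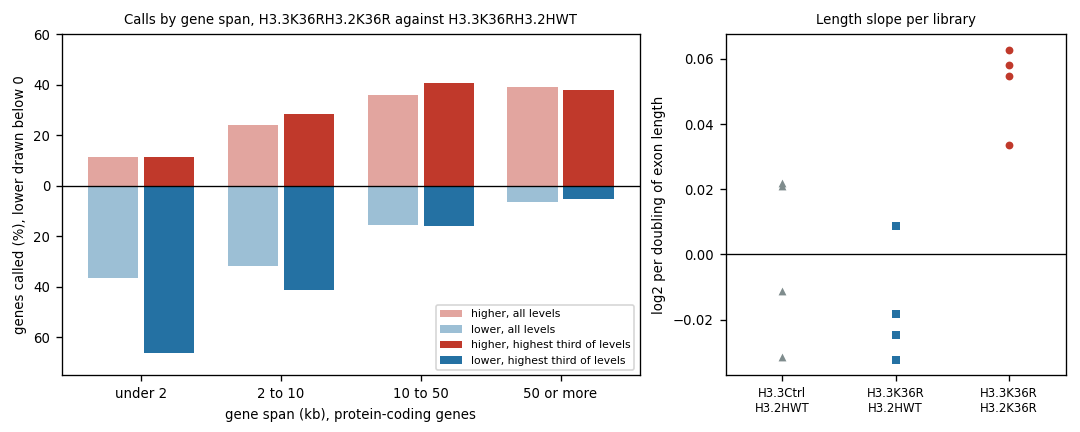
Left, percentage of protein-coding genes called higher (above 0) and lower (below 0) by genomic span, for all levels (pale) and for the highest tercile of levels (full colour). Right, slope on log2 exon length of the log2 level relative to the histone control mean, in each library. The 4 combined libraries lie at 0.0337 to 0.0629, above all libraries of the other 2 genotypes.

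Of 1063 long noncoding RNA genes tested, 207 rose (19.5%, beside 19.7% of all genes) and 35 fell (3.29%, beside 28%). Antisense RNA genes had 53 of 434 higher and 20 lower, both under the shares of all genes: asRNA:CR46471 was at 6.28, 5.87, 5.98 and 5.04 CPM against 0.565, 1.15, 1.33 and 1.49 (2.35 ± 0.28), asRNA:CR44181 and asRNA:CR45520 rose by 2.01 ± 0.27 and 1.41 ± 0.20, and asRNA:CR45143, under 2 CPM throughout, fell by 1.78 ± 0.38. Genes in the lowest tercile of levels, under 1.94 CPM, had 539 rises (11.3%) and 384 falls (8.02%), both under the shares of all genes. The middle tercile had 937 rises (19.6%) and 1829 falls (38.2%). The filter can set part of such counts. The 14032 genes that passed it without the combined libraries held 2771 of the 2835 rises and all 4023 falls. How many of the remaining rises lie in the lowest tercile was not counted.

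A few genes were read in one genotype and hardly in the other, a pattern looked for after the data were seen. A set of 12 genes reached 1 CPM in every combined library and stayed under 0.2 CPM in every library of H3.3K36R alone, among them kl-3, CG46192 and CR46185 on the Y. CheA86a, of a chemosensory gene family, was at 3.16, 3.12, 2.03 and 3.23 CPM against 0, 0, 0.0238 and 0.0745. lncRNA:CR45577 was at 1.63, 1.83, 1.17 and 1.34 CPM and listed at 0 in each library of H3.3K36R alone. These 2 genes, lncRNA:CR46007 and lncRNA:CR44940 were 4 of the 12 and lay on chromosome 3R between 10896479 and 11145235. That stretch was drawn around these genes after their values were seen, so no count over it is given. lncRNA:CR45578 (5.41, adjusted p = 0.00461) and SdhCL (4.63, adjusted p = 0.000629) also rose within it, and Ugt35C1 fell (-0.85, adjusted p = 0.000556). The gene side-VI rose there by only 0.43 (adjusted p = 0.0215). lncRNA:CR45579 (-1.25, adjusted p = 0.534) and mAcon2 (0.58, adjusted p = 0.740) lie in the same stretch and were not called. Ugt302K1, which fell, lies just beyond it.

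For CG34138 the control did not match H3.3K36R alone: it was at 3.50 to 4.52 CPM in the control, 0 to 0.0522 in H3.3K36R alone and 2.21 to 4.01 in the combined genotype. In the reverse direction 3 genes met the rule. Sgs5 is given above, CG17751 was at 1.55 to 2.34 CPM in H3.3K36R alone, 0 to 0.141 in the combined genotype and 0.812 to 2.58 in the control, and CG15741 was at 2.12 to 14.8, 0.0854 to 0.119 and 0.787 to 2.59 CPM in the same order.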

How the data were processed

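RNA-seq read counts per gene of 23 libraries were taken as deposited by the authors. The submitters' processing notes name STAR 2.7.2a and Subread 2.0.3; the sources used here do not give the build, annotation, strand setting or treatment of multi-mapped reads. Counts of 5 to below 20 were even in 62.1% of cases, against 49.9% among high counts, and the cause was not tested. Columns were matched to samples by name. Symbols and positions came from BDGP6.54 for 17527 of 17606 identifiers (99.6%), which may not be the authors' build.

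A filter on low counts (filterByExpr of edgeR, minimum count 10) took out 3241 genes. All 23 libraries were fitted in 1 model with 1 mean per genotype (edgeR 4.0.16 in R 4.3.3, TMM scaling, robust quasi-likelihood test with 17 residual degrees of freedom), and p-values were adjusted by Benjamini-Hochberg over all 14365 tested genes. SE is the log2 difference divided by the square root of the test statistic F. CPM values use the TMM-scaled totals. Chromosome indices are means of log2 CPM with a prior count of 2, compared by exact two-sided permutation. The fit was tested on simulated data. Alternatives were DESeq2 1.42.0 and its size factors in edgeR, no filter, a minimum count of 50, the 8 libraries alone, autosomal scaling, the replicate number as a block, each of the 8 libraries left out, and, for the indices, prior counts of 0.5 and 8 and medians. A removal of each library's trend on exon length and, for the indices, every gene with a read and a filter run without the combined libraries were added after seeing the data.

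Genes were named by rule: the 12 largest rises and falls among called, named, non-overlapping genes of at least 5 CPM, the 4 smallest p in each direction, up to 4 called members of each of 52 gene lists with 1 in the other direction, and a few genes of the H3K36, dosage compensation and Hox systems. The comparison and the lists were chosen with earlier results of these data known. Same-numbered libraries of the genotypes correlated weakly (-0.03 to 0.17), so the numbers were not used as pairs in the main fit.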

Additional observations from a re-analysis of the deposited data

Results flagged for a closer look

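In groups of 4 libraries, 27 of 556 sets of values held 1 library whose gap to the nearest of the others, as a share of the group's range, was above Dixon's 95% critical value. Chance flags about 1 in 20 independent sets. These sets share the same 8 libraries and most are genes picked by their values, so that rate is no reference for the number. Of the 27, 14 were high values of replicate 3 of the combined genotype. The sum of reads on replication-dependent histone genes there was 854, against 6 to 50 in the other replicates. Alp8 was at 40.96 CPM there, where the others had at most 2.93, PH4alphaMP at 5.204 and RnrL at 19.1 CPM. Further high values of that library were those of Cda4 at 68.4, CycD at 16.02, GstO2 at 54.7, His2Av at 82.2, Nlp at 93.5, Prosbeta7 at 34.8, Ssrp at 36.1, Ugt37C1 at 9.35, eIF6 at 29.8 and mRpS35 at 8.46 CPM. All 13 of these genes were lower in the combined genotype as a whole, and in each the library stood nearest to H3.3K36R alone, the direction in which it also lay on the first principal component.

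Other libraries of the combined genotype stood out for few genes: replicate 4 for Cubn at 146 CPM (high), Su(Ste):CR45796 at 0.354 CPM (high) and rhi at 8.70 CPM (low), replicate 2 for krimp at 12.5 CPM (high), and replicate 1 for Sgs5 at 0.0297 CPM, where the others were listed at 0. In H3.3K36R alone, replicate 1 was high for Clamp at 67.0 CPM and mRpL34 at 14.3 CPM and low for Spt6 at 193 CPM. Replicate 3 was low for Marf1 at 8.45, lncRNA:Irar at 0.906 and topi at 0.929 CPM and high for gd at 0.890 CPM, and replicate 4 was high for Lsm11 at 2.07 CPM.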

How the results depend on the processing

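Over the 16 alternatives 6071 to 7471 genes were called, and the share of rises among calls was 40.5% to 48.1%. Leaving out 1 library gave 6071 to 6910 called genes, 2461 to 3170 higher and 3454 to 3748 lower, and 2211 to 2677 genes at 2-fold or more, 683 to 928 higher and 1468 to 1826 lower. The same settings gave the X index differences of 0.0786 to 0.0977, chromosome 4 0.176 to 0.254 and the Y 1.92 to 2.07. Each kept its direction, but without replicate 1 or 2 of the combined genotype or replicate 4 of H3.3K36R alone chromosome 4 had an adjusted p of 0.0571. With medians over genes the X index turned to -0.0554, and chromosome 4 was at 0.280 and the Y at 2.09, each with an adjusted p of 0.0857. With the length trend removed chromosome 4 was at 0.115 (adjusted p = 0.0571). The cause of these moves was not tested.

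The replicate number paired the libraries only in part. Same-numbered libraries had correlations of 0.14, 0.02, 0.17 and -0.03. Replicates 1 and 3 of the combined genotype correlated best with their own number, and replicates 2 and 4 with number 1. Counts of replicates 1 and 2 were closer to each other than to 3 or 4 in both genotypes. Their chi-square per degree of freedom was 22.9 in the combined genotype, against 99.3 to 175 across those pairs. In H3.3K36R alone it was 84.4 against 159 to 342, and replicates 3 and 4 were at 49.3 (116 in the combined genotype). A shared batch was not tested. With the replicate block, 7471 genes were called, and the X, chromosome 4 and Y differences of 0.0883, 0.224 and 2.01 had an exact sign-flip p of 0.125, the smallest that 4 pairs allow.

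Of 272 named genes, 7 changed sign under some setting, and none of these was called in the comparison. The gene w, at -0.02, was at 0.0568 with DESeq2's size factors and with DESeq2, 0.0235 with no filter, 0.0505 at a minimum count of 50, 0.00992 with 8 libraries, 0.0146 with autosomal scaling, 0.00627 with the block and 0.0922 with the length trend removed, and from -0.0463 to 0.0926 with a library left out. Antp was at 0.0321 with DESeq2's size factors and with DESeq2, 0.0253 at a minimum count of 50, and from -0.0616 to 0.0597 with a library left out; lab was at 0.0236, 0.0170 and -0.0631 to 0.0369 in the same order. His3.3A was at 0.00266 with DESeq2's size factors, 0.00255 with DESeq2, 0.202 with the length trend removed and -0.0995 to 0.0541 with a library left out. Set2 was at -0.191 with the length trend removed and -0.00165 to 0.0852 with a library left out, abd-A at -0.0986 with the length trend removed, and mfr at -0.450 to 0.136 with a library left out. Of the named genes, 19 lost their call and 7 gained one in some setting, with Antp among the 7 that gained one. Counts of 15 of the 52 lists moved by more than 1.5 times in some setting. Those not given in the report are rises of the JAK/STAT and JNK targets, from 6 to 10 in 5 settings, of the receptors, from 10 to 16 with 8 libraries and 18 with DESeq2, of immune effectors, from 5 to 3 with 8 libraries, of Osiris genes, from 1 to 2 with 8 libraries and with the block, of tubule, oenocyte and nephrocyte genes, from 7 to 4 with the length trend removed, and of Stellate and Su(Ste) genes, from 2 to 5 with no filter and to 1 at a minimum count of 50. Genes under about 1 CPM, most Y-linked and egg genes among them, are limited by few reads.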
